A study of Mus musculus with 24 samples.

Results

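The DNA glycosylases were taken as 10 mouse genes chosen by name: Ogg1, Mutyh, Neil1, Neil2, Neil3, Nthl1, Mpg, Ung, Tdg and Smug1. They are 10 of the 19505 genes that could be named on the array, read by 20 of its 41174 probes other than controls, and each of the 20 is accounted for here. A probe listed as Ung2 was left out, because it lies on chromosome 13 and RefSeq lists that name as a synonym of Ccno. RNA came from immortalized mouse embryonic fibroblasts that lack Ku70 (the product of Xrcc6), so treated and untreated cultures alike carried the Ku70-/- genotype and no wild-type comparison is made. Arrays were run in 2 sets with 3 arrays per group. The first set of 15 arrays held one untreated control group labelled 4 hr, cells exposed to 20 mM potassium bromate (KBrO3) and cells co-exposed to KBrO3 and 150 uM bisphenol A (BPA), each collected at 4 and 24 hr. KBrO3 was given as a short pulse followed by fresh medium, whereas co-exposed cells received BPA before, during and after the pulse. The second set of 9 arrays held its own untreated control, with no time on its label, and cells given 150 uM BPA alone for 4 or 24 hr by the labels. The study's methods give later hours for BPA alone. No 24 hr control was analysed here, so a difference between a 24 hr group and the first set's control cannot be told apart from time in culture.

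DNA glycosylases start base excision repair: each recognizes a damaged or mispaired base and cuts it from the sugar, after which an endonuclease, a polymerase and a ligase restore the strand. KBrO3 is an oxidant known for raising 8-oxoguanine in DNA, the base that Ogg1 removes opposite cytosine, while Mutyh removes the adenine that replication places opposite it. Nthl1 and the Neil enzymes act on oxidized pyrimidines and ring-opened purines, Mpg on alkylated purines, Ung and Smug1 on uracil, and Tdg on thymine or uracil opposite guanine and on oxidized methylcytosine. BPA is a plasticizer monomer with weak estrogen activity, and Ku70 belongs to the end-joining pathway for double-strand breaks.

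What each probe reads is set by its 60 bases, and several genes had probes that read different stretches of transcript. Shown next, in the direction of the transcript, are lead probes (the probe of a gene with the highest mean signal) and the other probes whose values diverged from them or overlapped them, as the first 30 bases or, for 3 of them, whole. Positions are those given with the array design, on mouse build mm7, and a span longer than the probe crosses a gap in its alignment. Capitals in the Ogg1 lines mark bases present in both Ogg1 probes, which were offset by 20 bases and shared a run of 40, so that they are not independent readings.
Ogg1 A_52_P567905 (chr6:113495019-113495078, plus strand): agggaaaaaggaagctatttGAGCAAAAGG
Ogg1 A_51_P489903 (chr6:113495039-113495098, plus strand): GAGCAAAAGGAACTGTCTTGTTTTATTTTC
Mutyh A_51_P257619 (chr4:116194238-116194379, plus strand): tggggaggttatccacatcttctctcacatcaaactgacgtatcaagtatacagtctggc
Mutyh A_52_P238785 (chr4:116194523-116194582, plus strand): gctttatgtaaactccttgctgtgtaactg
Mutyh A_52_P165831 (chr4:116192080-116192139, plus strand): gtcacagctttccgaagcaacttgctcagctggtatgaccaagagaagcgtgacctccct
Neil1 A_51_P109741 (chr9:57170850-57170909, minus strand): ttccctgatgacttgctgtgaatcctgggg
Neil3 A_52_P251366 (chr8:52356044-52356103, minus strand): ggaatggaaattgttccaggatgctaatag
Neil3 A_51_P319986 (chr8:52369842-52369901, minus strand): ttgaccacaaggcctctgggtaagagtgac
Neil3 A_51_P195783 (chr8:52376022-52376081, minus strand): ctctgaatgtattttgctacagttacacca
Nthl1 A_51_P341832 (chr17:22819265-22819324, plus strand): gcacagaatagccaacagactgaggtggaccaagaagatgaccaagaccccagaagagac
Ung A_51_P469449 (chr5:113361050-113361109, plus strand): aatttctttttcatgcttttctgaaagaca
Tdg A_51_P338336 (chr10:82191750-82191809, plus strand): ggtggggcgttctcattaaataatactgag
Tdg A_52_P33287 (chr10:41863869-41863928, minus strand): tgtcaatgatttaaaaattattgtcactac
Smug1 A_52_P595717 (chr15:103141520-103141579, minus strand): agctccagagagggagactaaacctttgag
Smug1 A_52_P883243 (chr15:103146008-103146067, minus strand): gagagatagatatagttgaatatagatagg
The other Neil3 probes lay 13.8 and 20.0 kb from the lead Neil3 probe, and the 4 Smug1 probes spread over 13.3 kb. The second Tdg probe was placed 40.3 Mb from the lead Tdg probe on chromosome 10, although both were annotated to Tdg transcripts, so which locus it reads is uncertain. Counts and medians over 18 probes hold it, and those without it, a choice made after its values were seen, are given where it was called. Whether a probe lies in an exon, an intron or a flank in current annotation was not analysed here.

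The share of spots well above background ran from 57.7 to 68.1% in the first set, and second-set arrays had 76.4 to 79.4%. The median residual SD over tested probes was 0.107 and 0.34 (log2) for the 2 sets, so differences in the second set were measured less precisely. Within the first set the share ran from 57.7 to 60.2% in co-exposed cells at 24 hr and from 64.5 to 67.2% at 4 hr. The fibroblast markers Col1a1, Col1a2, Col3a1, Fn1, Vim, Pdgfrb and S100a4 were well above background on all 24 arrays and Thy1 on 19, whereas the leukocyte marker Ptprc was on 0. Markers of other cell types were mixed. Cd68 (leukocyte), Kdr (endothelial) and Acta1 (skeletal muscle) were well above background on all 24 arrays, while in the first set the epithelial Cdh1 and the endothelial Pecam1 and Cdh5 were on 0 of 15 arrays. The epithelial Krt18 was on 11 and Krt8 on 5 of those 15, and in the second set Cdh1, Krt8 and Krt18 were on all 9 arrays, Cdh5 on 8 and Pecam1 on 7. In the first and second set the skeletal muscle Myod1 was on 12 and 9 arrays, Myog on 5 and 9 and Des on 1 and 5, the leukocyte Adgre1 on 1 and 6 and the epithelial Epcam on 1 and 2. Their part in the results was not tested. The one Xrcc6 probe was well above background on all 24 arrays. The labels do not say which part of the gene is missing, so this probe does not check the genotype. A value below is the log2 signal of a probe minus the array's 75th percentile. It ranks a probe within its array, so less RNA per cell and fewer cells cannot be told apart, and one probe's level is not set against another's. A probe was tested in a set if some group had it well above background on all 3 arrays. Of the 20 probes, 18 were tested in both sets, and the Neil2 probe and the Smug1 probe A_51_P409068 were not.

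**Figure D1:**
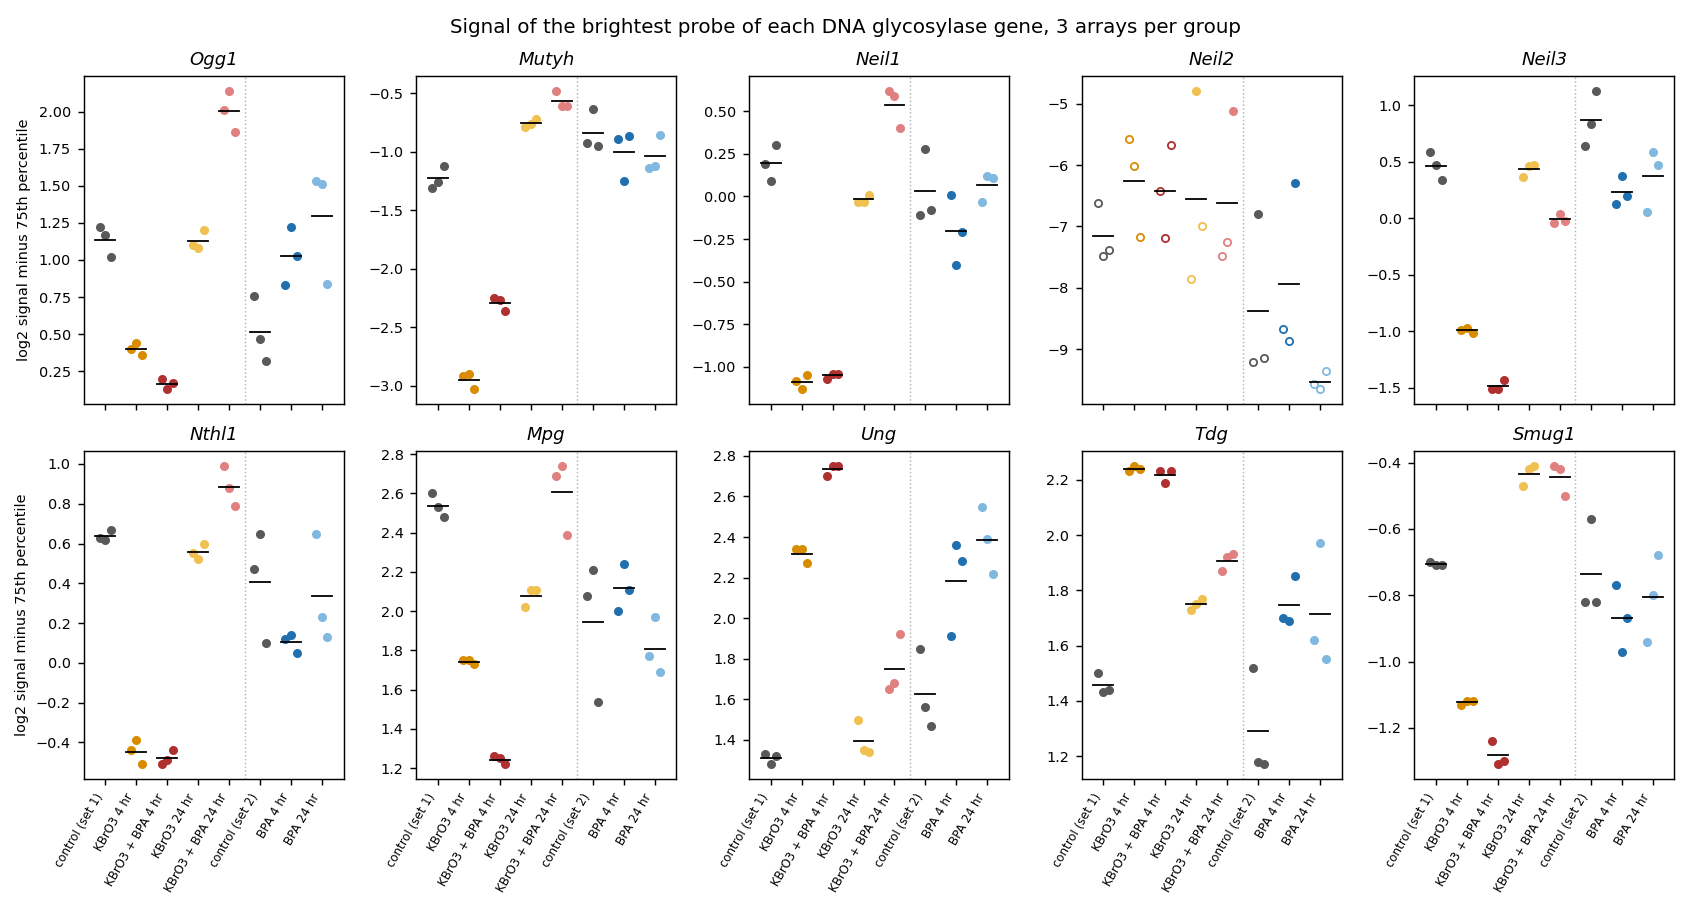
Each point is 1 array and the black line is the mean of 3 arrays, on the log2 scale relative to each array's 75th percentile, for the lead probe of every gene (open points were not well above background). In the first set, left of the dotted line, the 2 groups at 4 hr stand below the control in 7 panels and above it for Ung and Tdg.

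KBrO3 alone at 4 hr lowered 13 of the 18 tested probes and raised 4 at an adjusted p below 0.05. Over all 27315 probes tested, 35.8% were called lower and 36.3% higher in the same comparison, and the median log2 change was −0.86 over the glycosylase probes against 0.059 over all probes. By lead probe, 7 of 9 genes fell (Ogg1, Mutyh, Neil1, Neil3, Nthl1, Mpg and Smug1) and 2 rose (Ung and Tdg). Co-exposure at 4 hr gave 12 lower and 5 higher, against 36.9 and 41.6% of all probes, and 1 of the 5 was a dim Smug1 probe (A_52_P900452) that entered the test only through this group. Without it, a choice made after its values were seen, the counts were 12 lower and 4 higher and the medians −0.92 for KBrO3 and −0.97 for co-exposure at 4 hr. Without the distant Tdg probe A_52_P33287 instead, the counts were 13 lower and 3 higher for KBrO3 and 12 lower and 4 higher for co-exposure, with the same medians. At 24 hr, KBrO3 alone left 7 probes higher and 3 lower than control (32.1 and 34% of all probes), and co-exposure left 12 higher and 2 lower (32.9 and 37% of all probes). The distant Tdg probe was 1 of the higher ones in both, and without it 6 and 11 were higher. The background for these 24 hr counts moved with the processing. Of all called probes 48.6 and 47.1% were higher here. The shares were 61 and 68.2% when arrays were scaled to their median, and 27.3 and 29.7% with normexp background correction. Under the study's stricter rule, Bonferroni p below 0.01 and a change above 1.5-fold, the counts were 11 and 12 at 4 hr and 1 and 4 at 24 hr, for KBrO3 and co-exposure in that order, against 28.7, 32.6, 16.8 and 20.8% of all probes.

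**Figure D2:**
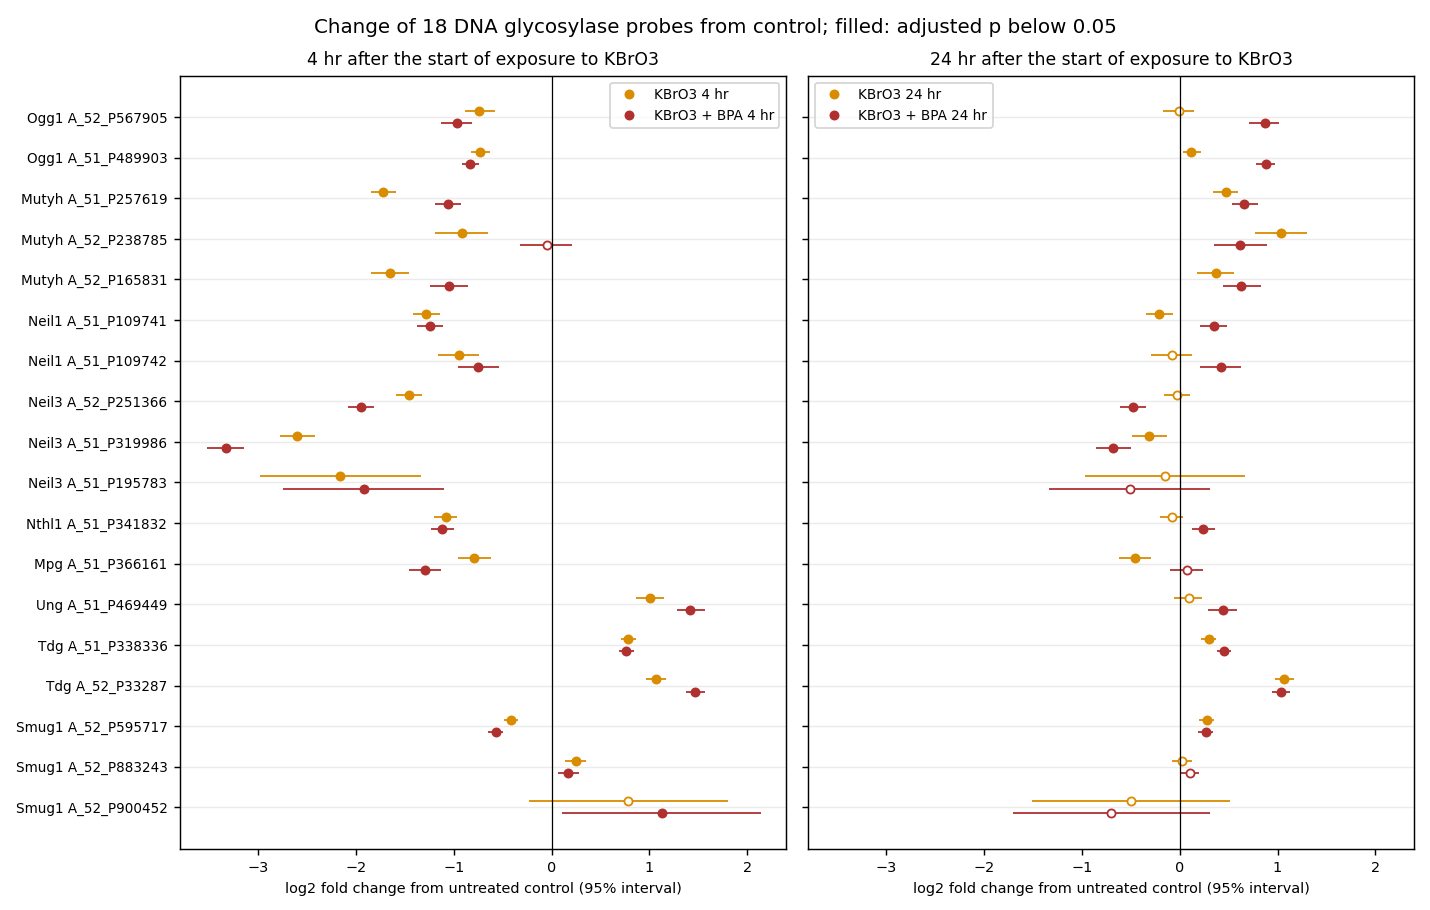
Points are log2 fold changes from the untreated control with 95% intervals for the 18 tested probes (3 arrays per group), filled where the adjusted p was below 0.05. At 4 hr most probes lie left of 0, with Ung, both Tdg probes and the minor Smug1 probes to the right, whereas at 24 hr most co-exposed values lie at or right of 0.

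From 4 to 24 hr after KBrO3 alone, 13 glycosylase probes rose and 4 fell, against 33 and 42.3% of all probes. The same counts, 13 and 4, were found in co-exposed cells, against 32.8 and 48.4%. The dim Smug1 probe A_52_P900452 is among the 4 in both, and without it 3 fell. The distant Tdg probe is also among the 4 in co-exposed cells, and leaving out that probe instead gave 3 there. The median change over the 18 probes was 0.86 and 1.36 (0.87 and 1.37 with 1 or the other of these probes left out), against −0.121 and −0.224 over all probes. Median scaling moved the median of all probes in co-exposed cells to 0.236, and both Tdg probes, which had fallen, then stood at 0.02 and 0.15.

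Ogg1, the 8-oxoguanine glycosylase, read 1.22, 1.17 and 1.02 on its lead probe in control arrays. It read 0.40, 0.44 and 0.36 at 4 hr after KBrO3 and 0.20, 0.13 and 0.17 after co-exposure. At 24 hr it read 1.10, 1.08 and 1.20 after KBrO3 alone and 2.01, 2.14 and 1.86 after co-exposure. All 6 arrays at 4 hr were below all controls, KBrO3 alone at 24 hr overlapped the control, and co-exposed cells at 24 hr were above every other array of the set. Ogg1 thus fell 1.67-fold with KBrO3 (log2 −0.74 ± 0.072 SE, adjusted p = 1.21e-06) and 1.96-fold with co-exposure at 4 hr. At 24 hr its difference from control was −0.01 (95% interval −0.17 to 0.15, adjusted p = 0.898) with KBrO3 alone, and co-exposed cells had a 1.82-fold rise (0.87 ± 0.072, adjusted p = 3.7e-07). The overlapping probe A_51_P489903 gave −0.73, −0.83, 0.12 and 0.88 in the same order, and its 24 hr value with KBrO3 alone passed the threshold at an adjusted p of 0.0211. That small rise was lost without control replicate 2 (0.10, adjusted p = 0.0879), without KBrO3 24 hr replicate 3 (0.10, adjusted p = 0.0845) and with slide as a random block (adjusted p = 0.166).

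Mutyh, which removes adenine from 8-oxoguanine pairs, showed the deepest fall among the lead probes at 4 hr after KBrO3 and the largest moderated F over the 5 groups of the first set (593). Its lead probe read −1.31, −1.26 and −1.12 in control arrays and −2.92, −2.90 and −3.03 after KBrO3. Co-exposed arrays at 4 hr read −2.25, −2.27 and −2.36. At 24 hr the values were −0.79, −0.76 and −0.72 after KBrO3 and −0.48, −0.61 and −0.61 after co-exposure. No array of one group overlapped another group, and the order ran from KBrO3 at 4 hr, through co-exposure at 4 hr, the control and KBrO3 at 24 hr, to co-exposure at 24 hr. The fall was 3.29-fold with KBrO3 (−1.72 ± 0.059, adjusted p = 8.07e-11) and 2.09-fold with co-exposure (−1.06 ± 0.059, adjusted p = 5.18e-09), and the 24 hr values were 1.38-fold and 1.59-fold above control (adjusted p = 1.98e-05 and 7.38e-07). A second probe, A_52_P165831, was not well above background on any KBrO3 array at 4 hr. Its estimate there was 3.15-fold lower (−1.65, 95% interval −1.85 to −1.46, adjusted p = 4e-09). The third probe, A_52_P238785, fell 1.89-fold with KBrO3 at 4 hr but read −3.65, −3.81 and −3.61 after co-exposure against −3.77, −3.76 and −3.38 in control arrays, which overlapped (−0.05, 95% interval −0.32 to 0.21, adjusted p = 0.696). At 24 hr this probe was 2.05-fold above control with KBrO3 alone and A_52_P165831 was 1.29-fold above it, although with normexp background correction both turned negative (−0.54 and −1.04), with the median of all probes at −0.517, and with slide as a random block the call of A_52_P165831 was lost (0.3, adjusted p = 0.0707). With normexp the lead probe's rises at 24 hr no longer passed (0.09 and 0.27, adjusted p = 0.638 and 0.157).

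Neil1 and Nthl1, both for oxidized pyrimidines, moved together. The lead Neil1 probe read 0.19, 0.09 and 0.30 in control arrays, −1.08, −1.13 and −1.05 at 4 hr after KBrO3, and −1.07, −1.04 and −1.04 after co-exposure. The 24 hr arrays read −0.03, −0.03 and 0.01 after KBrO3 and 0.62, 0.59 and 0.40 after co-exposure. Both 4 hr groups lay more than 1 log2 unit below the lowest control and overlapped each other, while the 24 hr groups lay just below and just above the control. Nthl1 read 0.63, 0.62 and 0.67 in control arrays, −0.44, −0.39 and −0.51 after KBrO3 and −0.51, −0.49 and −0.44 after co-exposure at 4 hr. Nthl1 at 24 hr read 0.55, 0.52 and 0.60, and 0.99, 0.88 and 0.79. As for Neil1, the 2 groups at 4 hr overlapped at the bottom and co-exposed cells at 24 hr were highest. Neil1 fell 2.43-fold (−1.28 ± 0.063, adjusted p = 1.76e-09) and 2.37-fold at 4 hr, and Nthl1 fell 2.12-fold (−1.08 ± 0.052, adjusted p = 1.6e-09) and 2.17-fold. At 24 hr Nthl1 after KBrO3 alone did not pass (−0.08, 95% interval −0.20 to 0.03, adjusted p = 0.195), whereas Neil1 stayed 1.16-fold lower (adjusted p = 0.0108), a call lost when arrays were scaled to their median (−0.06, adjusted p = 0.57). After co-exposure both were above control at 24 hr, Neil1 by 1.27-fold and Nthl1 by 1.18-fold. The second Neil1 probe fell 1.93-fold and 1.68-fold at 4 hr and was 1.34-fold above control after co-exposure at 24 hr, a direction that normexp correction turned (−0.17, adjusted p = 0.493), with the median of all probes at −0.518.

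Neil3, a Neil family enzyme known for its expression in dividing cells and for repair at stalled forks, fell on all 3 probes at 4 hr. Its lead probe read 0.59, 0.47 and 0.34 in control arrays, −0.99, −0.97 and −1.01 after KBrO3 and −1.51, −1.51 and −1.43 after co-exposure. By 24 hr it read 0.37, 0.46 and 0.47 after KBrO3 and −0.04, 0.04 and −0.02 after co-exposure. The co-exposed groups were the lower of the pair at each time, and on this probe only KBrO3 at 24 hr overlapped the control. The fall at 4 hr was 2.75-fold with KBrO3 (−1.46 ± 0.059, adjusted p = 3.31e-10) and 3.87-fold with co-exposure (−1.95 ± 0.059, adjusted p = 2.02e-11). Co-exposed cells at 24 hr were still 1.39-fold lower than control (adjusted p = 1.47e-05), which was lost on median scaling (−0.16, adjusted p = 0.205). The probe A_51_P319986 moved further: it read 0.54, 0.51 and 0.44 in control arrays against −2.15, −2.11 and −2.05 after KBrO3 and −2.80, −2.81 and −2.89 after co-exposure, falls of 6.07-fold and 10.1-fold. At 24 hr this probe was still 1.24-fold lower after KBrO3 (−0.31, adjusted p = 0.00577) and 1.6-fold lower after co-exposure (adjusted p = 1.33e-05), with no overlap with the control in either. The third probe fell 4.47-fold and 3.8-fold with wider intervals (SE 0.38), and 2 of its 15 arrays were not well above background.

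Neil2, a relative that prefers single-stranded DNA, was well above background on 2 of 15 arrays in the first set and 2 of 9 in the second. Those were KBrO3 24 hr replicate 2, KBrO3 + BPA 24 hr replicate 3, control replicate 2 and BPA 4 hr replicate 3. No change in Neil2 was detectable at this signal.

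Mpg, the alkyladenine glycosylase, read 2.60, 2.53 and 2.48 in control arrays, 1.75, 1.75 and 1.73 at 4 hr after KBrO3, and 1.26, 1.25 and 1.22 after co-exposure. The 24 hr values were 2.02, 2.11 and 2.11 after KBrO3 and 2.69, 2.74 and 2.39 after co-exposure. Co-exposure at 4 hr gave the lowest arrays, and of the 24 hr groups only the co-exposed one overlapped the control. Mpg fell 1.73-fold with KBrO3 (−0.79 ± 0.076, adjusted p = 1.03e-06) and 2.45-fold with co-exposure at 4 hr (−1.29 ± 0.076, adjusted p = 7.85e-09). It was still 1.37-fold lower at 24 hr after KBrO3 alone (adjusted p = 0.000182). Its difference from control after co-exposure at 24 hr was 0.07 (95% interval −0.10 to 0.24), and without KBrO3 + BPA 24 hr replicate 3, the lowest of the group, it was 0.18 (adjusted p = 0.00389).

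Ung and Tdg moved the other way. Ung, the main uracil glycosylase, read 1.33, 1.28 and 1.32 in control arrays, 2.34, 2.34 and 2.27 at 4 hr after KBrO3 and 2.70, 2.75 and 2.75 after co-exposure. By 24 hr Ung read 1.5, 1.35 and 1.34 after KBrO3 and 1.65, 1.68 and 1.92 after co-exposure. The groups were ordered as the reverse of Neil3 and none overlapped. Ung rose 2.01-fold with KBrO3 (1.01 ± 0.068, adjusted p = 3.65e-08) and 2.68-fold with co-exposure at 4 hr (1.42 ± 0.068, adjusted p = 1.15e-09). At 24 hr the difference with KBrO3 alone was 0.09 (95% interval −0.06 to 0.23, adjusted p = 0.284) and that with co-exposure was 1.36-fold (adjusted p = 8.91e-05).

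Tdg, the thymine DNA glycosylase, read 1.5, 1.43 and 1.44 on its lead probe in control arrays, 2.23, 2.25 and 2.24 after KBrO3 and 2.23, 2.19 and 2.23 after co-exposure at 4 hr. At 24 hr it read 1.73, 1.75 and 1.77 after KBrO3 and 1.87, 1.92 and 1.93 after co-exposure. All 12 treated arrays were above the 3 controls, and the 2 groups at 4 hr overlapped. Tdg rose 1.72-fold and 1.7-fold at 4 hr (0.78 and 0.76, SE 0.034 each) and was 1.23-fold and 1.37-fold above control at 24 hr (adjusted p = 8.11e-06 and 1.47e-07). The probe placed at the distant position read −1.25, −1.27 and −1.20 in control arrays against −0.19, −0.16 and −0.16 at 4 hr and −0.18, −0.17 and −0.16 at 24 hr after KBrO3. It was 2.1-fold above control at both times, so the decline from 4 to 24 hr after KBrO3 alone seen on the lead probe (−0.49 ± 0.034, adjusted p = 5.5e-08) was not seen on it (0.00 ± 0.045, adjusted p = 0.98). In co-exposed cells both probes changed downward, by −0.31 ± 0.034 on the lead (adjusted p = 3e-06) and −0.44 ± 0.045 on the distant probe (adjusted p = 2.01e-06). Both of these turned on median scaling.

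Smug1, a second uracil glycosylase, fell on its lead probe at 4 hr, from −0.70, −0.71 and −0.71 in control arrays to −1.13, −1.12 and −1.12 after KBrO3 and −1.24, −1.31 and −1.30 after co-exposure. At 24 hr it read −0.47, −0.42 and −0.41, and −0.41, −0.42 and −0.50. The 24 hr groups overlapped each other and stood above the control. The falls were 1.33-fold and 1.49-fold (adjusted p = 4.1e-07 and 1.6e-08) and the rises at 24 hr were 1.21-fold and 1.2-fold. The probe A_52_P883243, annotated to a cDNA clone 4.5 kb away, moved the other way at 4 hr by 1.19-fold and 1.13-fold, a direction that normexp correction turned (−0.31 and −0.39) while the median of all probes went to −0.456 and −0.443. With slide as a random block the second of these calls was lost (0.15, adjusted p = 0.0843). The dim probe A_52_P900452 was above background on 4 arrays of the first set, 3 of them co-exposed at 4 hr, where it was at least 2.18-fold higher than in control (adjusted p = 0.0418). With slide as a random block this call was lost too (0.27, adjusted p = 0.754). It entered the test only through that group, and the counts and medians over 18 probes hold it unless stated.

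**Figure D3:**
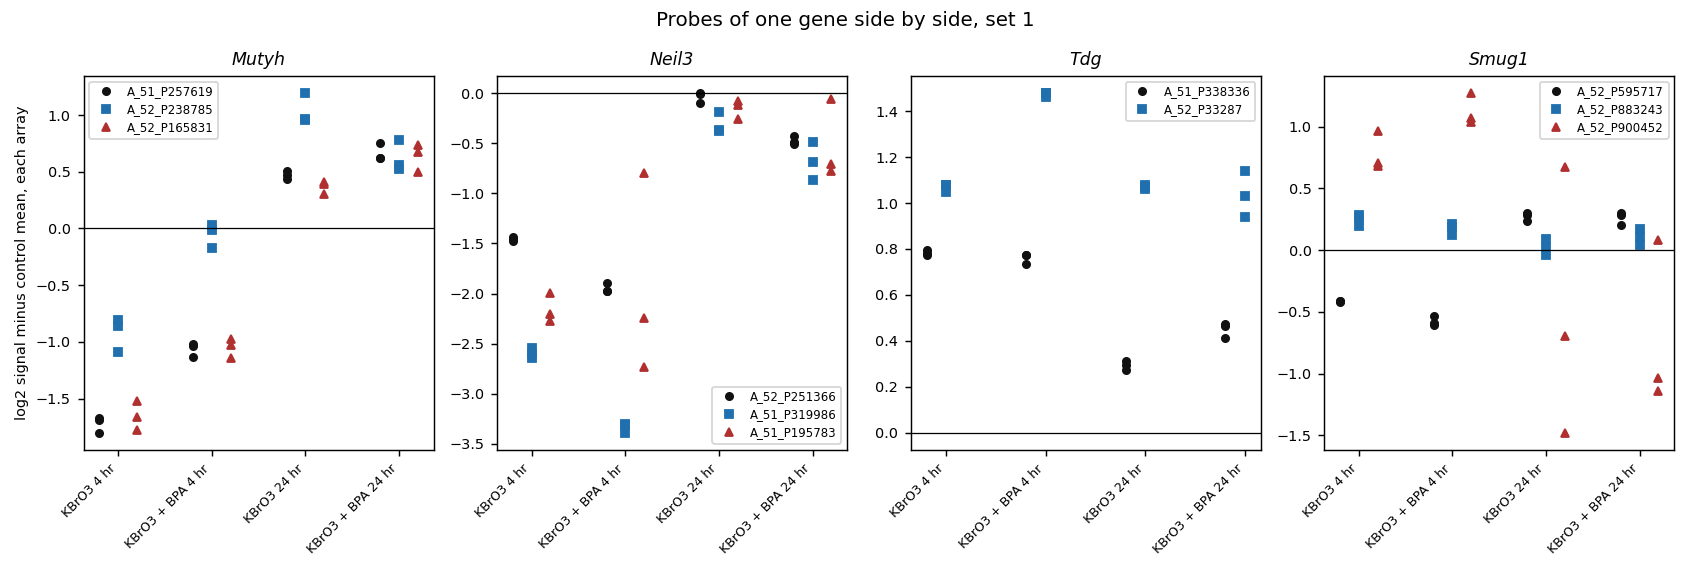
Each point is 1 array of the first set, on the log2 scale minus the mean of the 3 control arrays of the same probe, for the tested probes of the 4 genes whose probes differed. The Mutyh probe A_52_P238785 overlapped its control arrays after co-exposure at 4 hr while the other 2 Mutyh probes lay below theirs, and the Smug1 probes lie on both sides of 0.

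Co-exposed cells were then compared with cells given KBrO3 alone, which asks what BPA added. At 4 hr each group had all its arrays on 1 slide, and the groups shared none, so slide and BPA cannot be told apart there. At 4 hr 5 probes were higher and 5 lower, against 29.2 and 28.6% of all probes, and 4 were higher without the distant Tdg probe. The higher ones were the 3 Mutyh probes (1.57-fold, adjusted p = 3.5e-06 for the lead), Ung (1.34-fold, adjusted p = 0.000276) and the distant Tdg probe (1.32-fold). The lower ones were Ogg1 (1.18-fold, adjusted p = 0.0153), 2 Neil3 probes (1.41-fold, adjusted p = 2.8e-05 for the lead), Mpg (1.42-fold, adjusted p = 0.000155) and Smug1 (1.12-fold, adjusted p = 0.00279). The Ogg1 call was lost without KBrO3 4 hr replicate 2 (−0.21, adjusted p = 0.0523) and without KBrO3 + BPA 4 hr replicate 2 (−0.22, adjusted p = 0.05). Neil1 and Nthl1 did not pass, at 0.04 (95% interval −0.10 to 0.17) and −0.03 (−0.15 to 0.08), nor did lead Tdg at −0.02 (−0.09 to 0.06). With normexp correction 2 probes passed, both lower, against 12.2% of all probes, and lead Mutyh (0.44, adjusted p = 0.107), lead Ogg1 (−0.23, adjusted p = 0.259) and Mpg (−0.51, adjusted p = 0.054) did not. On median scaling 33.2% of all called probes were higher, against 50.4% here.

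At 24 hr 10 probes were higher and 3 lower in co-exposed cells than after KBrO3 alone, against 23.1 and 23.7% of all probes. Among the higher probes Ogg1 differed most, at 1.84-fold on its lead probe (0.88 ± 0.072, adjusted p = 1.24e-06) and 1.68-fold on the overlapping probe. Next came Neil1 (1.47-fold, adjusted p = 1.77e-05), Mpg (1.44-fold, adjusted p = 0.000123), Ung (1.28-fold, adjusted p = 0.00102) and Nthl1 (1.25-fold, adjusted p = 0.000303). Mutyh was 1.14-fold higher (adjusted p = 0.0178) on its lead probe, a call lost without KBrO3 24 hr replicate 1 (0.18, adjusted p = 0.0566) or KBrO3 + BPA 24 hr replicate 1 (0.15, adjusted p = 0.0764), and Tdg was 1.11-fold higher (adjusted p = 0.00272). The Mutyh probe A_52_P238785 went the other way, 1.34-fold lower (−0.42, adjusted p = 0.014) with all its arrays below those of KBrO3 alone. The lead Neil3 probe was 1.36-fold lower (adjusted p = 7.32e-05), with an adjusted p of 0.0556 on median scaling. Lead Smug1 did not pass, at −0.01 (95% interval −0.09 to 0.07). Under the study's stricter rule 2 probes passed, both for Ogg1, against 5.8% of all probes. With normexp correction 5 were higher and 1 lower, against 11.1% of all probes called, and with all 24 arrays in 1 fit 4 were higher and 2 lower, against 15.1%. On median scaling, which raised the median of all probes from −0.041 to 0.128, 73.8% of all called probes were higher against 49.4% here.

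**Figure D4:**
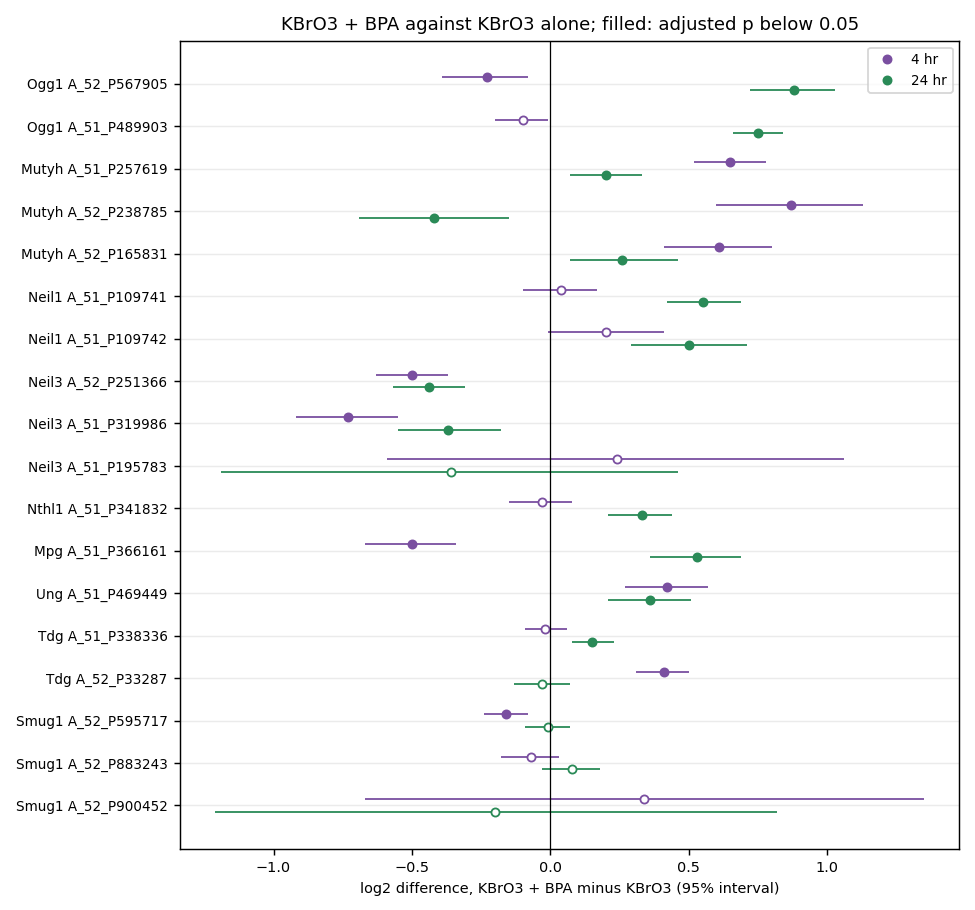
Points are log2 differences of co-exposed minus KBrO3-only cells with 95% intervals (3 arrays per group), filled where the adjusted p was below 0.05. Ogg1 and Mpg lie below 0 at 4 hr and above it at 24 hr, while the lead Neil3 probe lies below 0 and Ung above it at both times.

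Whether the difference that BPA added changed between 4 and 24 hr was tested as an interaction, which 12 of the 18 probes passed (11 of 17 without the distant Tdg probe), against 54.3% of all probes. Its 4 hr part lies between slides, so slide and BPA cannot be told apart in it. The largest upward changes were those of the lead Ogg1 probe (1.11 ± 0.10, adjusted p = 5.84e-06) and Mpg (1.03 ± 0.11, adjusted p = 1.5e-05), and the largest change in size was downward, on the Mutyh probe A_52_P238785 (−1.29 ± 0.17, adjusted p = 9.4e-05). With normexp background correction this Mutyh probe no longer passed (−0.57, adjusted p = 0.727), and 4 probes did, all of them upward, against 9.27% of all probes. The lead probes of Neil3 and Ung did not pass (0.05, 95% interval −0.13 to 0.24, and −0.06, −0.27 to 0.15).

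Each slide held 4 arrays at most, and slides were not balanced over groups. On the slide that held the 3 KBrO3 arrays of 4 hr with 1 control, all 17 called probes differed in the same direction as in the whole set. So did all 13 on the slide with 2 co-exposed and 2 KBrO3-only arrays of 24 hr. These arrays were part of those that gave the calls. The compared groups did not overlap on any called probe, so no other direction was possible and this is no separate check. With slide as a fixed block the count for co-exposure against KBrO3 at 24 hr stayed at 13, against 53% of all probes. For KBrO3 at 4 hr that fit rests on the 1 control of the slide. It repeats the differences within that slide, such as −1.83 for lead Mutyh and 1 for Ung. Co-exposure from 4 to 24 hr could also be fitted in this way, and its 17 calls became 15, against 65.4% of all probes. The calls lost were Neil3 A_51_P195783 (1.24, adjusted p = 0.189) and Smug1 A_52_P900452 (0.11, adjusted p = 0.882). The remaining comparisons with control, and co-exposure against KBrO3 at 4 hr, lie between slides that no shared group links, so slide and treatment cannot be told apart there. Slide as a random block assumes 1 correlation within slides (consensus 0.634) and does not separate them. It left 15 probes for co-exposure at 4 hr, 8 and 14 at 24 hr, and 10 for co-exposure against KBrO3 at 4 hr. The shares of all probes were 65.4, 55.4, 57.8 and 36%. The same holds for KBrO3 from 4 to 24 hr, with 16 probes against 63.9%, and for the interaction, with 9 against 40.7%. The interaction calls lost were those of Mutyh A_52_P165831 (−0.33, adjusted p = 0.167), lead Tdg (0.15, adjusted p = 0.108) and lead Smug1 (0.15, adjusted p = 0.0946).

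BPA alone changed no glycosylase probe at an adjusted p below 0.05 in limma at 4 or 24 hr, whereas 2.83 and 1.41% of all 31822 probes were higher and lower at 4 hr and 1.39 and 2.01% at 24 hr. At an unadjusted p below 0.05 there were 4 of 18 at each time, against 18.8 and 18.3% of all probes. Ung read 1.85, 1.56 and 1.47 in control arrays, 1.91, 2.36 and 2.28 at 4 hr and 2.55, 2.39 and 2.22 at 24 hr after BPA. Arrays did not overlap the control for 6 of 18 probes at each time, against 25.9 and 21.2% of all probes. These were the lead probes of Ogg1, Neil3, Ung and Tdg at both times, the Mutyh probe A_52_P238785 (below the control at both times), the second Neil1 probe (below it at 4 hr) and the second Ogg1 probe (above it at 24 hr). All 6 BPA arrays of Ung were above the 3 controls, with differences of 0.56 (95% interval 0.09 to 1.02, adjusted p = 0.183) and 0.76 (0.29 to 1.22, adjusted p = 0.0877). Ogg1 read 0.76, 0.47 and 0.32 in control arrays, 0.83, 1.22 and 1.03 at 4 hr and 1.53, 1.51 and 0.84 at 24 hr. Its arrays did not overlap the control either, at 0.51 (−0.04 to 1.06, adjusted p = 0.303) and 0.78 (0.23 to 1.33, adjusted p = 0.129). The lead Neil3 probe read 0.64, 0.84 and 1.13 in control arrays, 0.13, 0.38 and 0.20 at 4 hr and 0.06, 0.59 and 0.47 at 24 hr, all below the control, at −0.63 (−1.12 to −0.15, adjusted p = 0.149) and −0.50 (−0.98 to −0.01, adjusted p = 0.264). The Neil3 probes A_51_P319986 (0.10 and −0.13) and A_51_P195783 (−0.43 and −0.01) overlapped the control at both times. Lead Tdg had 0.46 (0.02 to 0.90, adjusted p = 0.25) and 0.42 (−0.02 to 0.87, adjusted p = 0.293), also with no overlap, whereas the distant Tdg probe overlapped (0.18 and 0.07). When all 24 arrays were fitted together, with 1 spread for both sets, 5 probes passed at each time, against 22.5 and 20.6% of all probes: both Ogg1 probes, Ung and lead Tdg higher, and lead Neil3 lower. On the slide with 2 BPA arrays of 4 hr and 1 control, Ung differed by 0.24 and Ogg1 by 0.17. On the 2 slides that paired 1 BPA array of 24 hr with 1 control, Ung differed by 0.99 and 0.91 and Ogg1 by 1.06 and 1.19. With slide as a fixed block the 24 hr difference of Ogg1 was 1.13 (adjusted p = 0.102). That fit called 0% of all 31822 probes, so the missing call decides nothing about Ogg1. The lead probes of Mutyh, Neil1, Nthl1, Mpg and Smug1 overlapped the control at both times, with intervals that included 0.

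**Figure D5:**
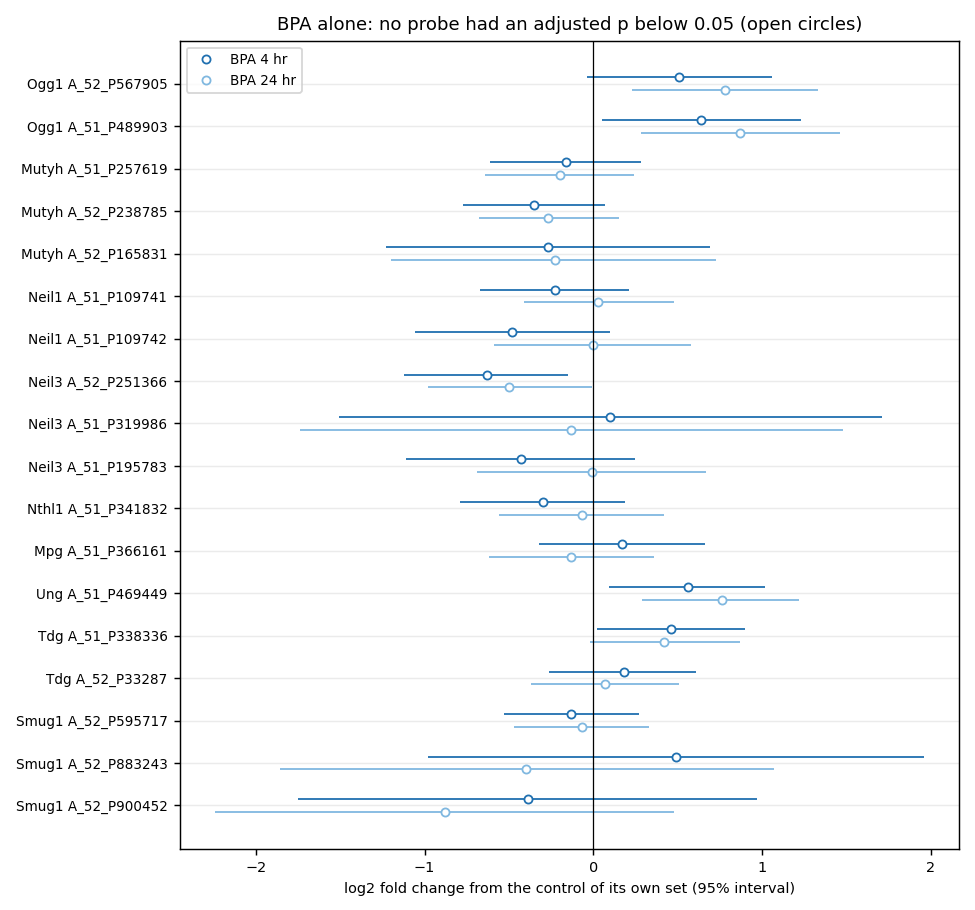
Points are log2 fold changes of BPA-treated cells from the control of the second set with 95% intervals (3 arrays per group), all open because no probe passed. Before adjustment the intervals of Ung, lead Neil3 and the Ogg1 probe A_51_P489903 lie to one side of 0 at both times, those of lead Ogg1 at 24 hr and lead Tdg at 4 hr only.

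A list of 17 other genes of base excision and single-strand break repair was read by the lead probe of each gene. Most act after the base is removed, but Mbd4 is itself a glycosylase and Nudt1 acts on the nucleotide pool. At 4 hr after KBrO3, 4 were higher and 11 lower, against 36.3 and 35.8% of all probes, with a median of −0.32. The 2 largest rises were Apex2 (2.33-fold), an abasic site endonuclease, and Pcna (2.04-fold), the replication clamp. The 2 largest falls were Mbd4 (4.4-fold), a further mismatch glycosylase, and Poll (3.4-fold), a repair polymerase. Co-exposure at 4 hr gave 6 higher and 11 lower (41.6 and 36.9% of all probes). At 24 hr, 10 were higher and 1 lower after KBrO3 (32.1 and 34% of all probes) and 13 higher and 1 lower after co-exposure (32.9 and 37%). Co-exposed cells at 24 hr had 11 higher and 3 lower than KBrO3 alone (median 0.19), against 23.1 and 23.7% of all probes. They were led by Nudt1 (1.52-fold), which clears oxidized nucleotides, and Mbd4 (1.42-fold), and at the other end Polb (1.32-fold lower) and Apex2 (1.18-fold lower). BPA alone gave 0 of 17 in limma at either time, against 4.24 and 3.4% of all probes, and 1 and 0 at an unadjusted p below 0.05.

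Neil3 and Ung are known to vary with the cell cycle, and 12 proliferation markers are given beside them. At 4 hr after KBrO3, 4 were higher and 6 lower (median −0.26), against 36.3 and 35.8% of all probes. They were Rrm2 (3.1-fold), Mcm5, Mcm3 and Mcm2 on one side and Plk1 (2.77-fold), Ccnb1, Bub1, Ccna2, Mki67 and Mcm6 on the other. Co-exposure at 4 hr gave 4 higher and 7 lower (41.6 and 36.9% of all probes). At 24 hr 11 were higher and 1 lower after KBrO3 (median 0.72, against 32.1 and 34% of all probes), and 8 were higher and 2 lower after co-exposure (median 0.29, against 32.9 and 37%). Against KBrO3 alone, 1 was higher and 7 lower in co-exposed cells at both times, with medians of −0.22 at 4 hr (29.2 and 28.6% of all probes) and −0.5 at 24 hr (23.1 and 23.7%). BPA alone gave 0 of 12 in limma at either time (medians −0.47 and −0.39), against 4.24 and 3.4% of all probes. At an unadjusted p below 0.05 there were 5 of 12 at each time, against 18.8 and 18.3% of all probes. The part of these markers in the glycosylase changes was not tested.

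Across the 15 arrays of the first set the lead probes of Neil1 and Nthl1 had a Pearson r of 0.992, and those of Neil3 and Ung an r of −0.988. The points are 5 groups of 3 similar arrays, so these values are descriptions and carry no test. Among 14567 genes compared, those most like the members ranked next after Mutyh by F were Vamp2, Fhod1 and Tnfaip8l1 for Neil3 (0.993 to 0.994), Nit1, Usp20 and Map4k1 for Nthl1 (0.996 to 0.997), and Arl2, Nit1 and Ppox for Neil1 (0.994 to 0.996). An r of at least 0.95 was common, shared by 378 genes with Mutyh, 387 with Neil3, 694 with Nthl1 and 585 with Neil1.

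The 250 bases before the transcription start of the 2 pairs that moved together or oppositely are shown next, from RefSeq on GRCm38.p6, whose promoter table used here held 9 of the 10 genes, all but Neil2. Capitals mark matches on either strand to any of the motifs searched. These were GGGCGG (GC box), CCAAT, TGACNNNGC (antioxidant response element core), TTTCGCGC (E2F site), GCGCA directly followed by TGCGC (NRF1 site), CACGTG (E box), GGTCA and TGACC with any 3 bases between them (estrogen response element) and TGACGTCA (cAMP response element).
Neil1 (chr9:57148306-57148555, minus strand): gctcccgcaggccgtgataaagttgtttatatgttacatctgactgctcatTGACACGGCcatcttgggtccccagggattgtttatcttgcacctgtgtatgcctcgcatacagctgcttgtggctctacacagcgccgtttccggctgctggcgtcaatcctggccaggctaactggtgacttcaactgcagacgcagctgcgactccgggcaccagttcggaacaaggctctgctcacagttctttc
Nthl1 (chr17:24632432-24632681, plus strand): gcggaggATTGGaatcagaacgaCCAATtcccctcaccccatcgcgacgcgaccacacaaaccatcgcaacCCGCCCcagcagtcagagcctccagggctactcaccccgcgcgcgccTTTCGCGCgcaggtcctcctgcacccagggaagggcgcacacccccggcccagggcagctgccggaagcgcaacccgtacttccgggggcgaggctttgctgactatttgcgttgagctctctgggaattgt
Neil3 (chr8:53639066-53639315, minus strand): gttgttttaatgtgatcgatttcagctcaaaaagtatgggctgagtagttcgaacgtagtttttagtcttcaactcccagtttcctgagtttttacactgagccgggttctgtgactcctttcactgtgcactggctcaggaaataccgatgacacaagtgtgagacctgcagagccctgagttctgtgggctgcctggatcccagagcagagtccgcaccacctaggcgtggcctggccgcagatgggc
Ung (chr5:114130185-114130434, plus strand): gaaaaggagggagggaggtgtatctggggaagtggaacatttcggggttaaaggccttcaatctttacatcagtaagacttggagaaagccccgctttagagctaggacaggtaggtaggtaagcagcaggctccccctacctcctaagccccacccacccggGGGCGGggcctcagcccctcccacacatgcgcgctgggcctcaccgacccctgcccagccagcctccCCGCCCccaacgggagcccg
Neil1 held 1 antioxidant core, 199 bases before the start, letters that 10.2% of all 32851 promoters held. Nthl1 held 1 GC box, 2 CCAAT boxes and the E2F letters, which 32.7, 33.8 and 0.256% of promoters held. Ung held 2 GC boxes, and the Neil3 window held none of the letters searched. Among the other members Tdg held a cAMP response element (1.5% of promoters), an E box (6.0%) and a CCAAT box. GC boxes were also present in Ogg1, Mutyh and Mpg, and CCAAT boxes in Ogg1, Mutyh, Mpg and Smug1. No 2 of the 24 matches in the members overlapped, and no member held the estrogen (0.064%) or NRF1 (0.782%) letters. A match describes the letters and is not evidence of binding.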

How the data were processed

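Cy3-labelled cRNA made from total RNA was hybridised to 1-colour Agilent mouse arrays, 24 in 2 sets scanned apart. The deposited intensity values were processed signals that the authors obtained with Agilent Feature Extraction 9.5.3.1 (first set) and 12.0.0.7 (second set), already background-corrected. The number of arrays limits precision. The 3 arrays of a group were biological replicates per the study's methods, which do not say whether cultures were separate, so p-values measure the spread between these samples. Here control spots were left out, spots of 1 probe were averaged, and log2 intensity minus each array's 75th percentile was tested per set with limma 3.58.1 (R 4.3.3), all groups of a set sharing 1 spread. A probe entered the test if some group had it well above background on all 3 arrays, and p-values were adjusted (Benjamini-Hochberg, threshold 0.05) over all such probes. The code was tested on simulated data. Symbols came from RefSeq, which named 32719 of 41174 probes. Every member probe was named, led by the brightest of each gene. The members and lists were chosen with earlier results of these data known. Alternatives changed the scaling, background correction (normexp, offset 50, on median signals in the second set), filter, threshold, fit, blocks and arrays. Same-numbered arrays did not deviate together (mean residual r −0.029 and 0.0022), so numbers were not paired. The genes most like Mutyh in pattern are not reported here.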

Additional observations from a re-analysis of the deposited data

Results flagged for a closer look

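The difference between co-exposed and KBrO3-only cells changed between 4 and 24 hr, by an interaction test in limma, for 12 glycosylase probes, against 54.3% of all probes tested. The change (24 hr minus 4 hr, log2) was 1.11 and 0.85 for the 2 overlapping Ogg1 probes and 1.03 for Mpg, which were below KBrO3 alone at 4 hr and above it at 24 hr, although the second Ogg1 probe did not pass at 4 hr (adjusted p = 0.0526). It was 0.52 for the lead Neil1 probe and 0.36 for Nthl1. For Mutyh it was −0.46 on the lead probe, −1.29 on A_52_P238785 and −0.34 on A_52_P165831. Probe A_51_P319986 of Neil3 changed by 0.36. The Tdg probes moved apart, by 0.17 on the lead and −0.44 on A_52_P33287, and lead Smug1 changed by 0.15. With normexp correction 4 of the 12 passed, against 9.27% of all probes, all of them upward: both Ogg1 probes, lead Neil1 and Mpg. The value for A_52_P165831 turned (0.10), and those lost besides it were lead Mutyh (−0.26, adjusted p = 0.668), A_52_P238785 (−0.57, adjusted p = 0.727), A_52_P33287 (−0.47, adjusted p = 0.322), lead Tdg (0.15, adjusted p = 0.795), Neil3 A_51_P319986 (0.14, adjusted p = 0.809), Nthl1 (0.36, adjusted p = 0.111) and lead Smug1 (0.21, adjusted p = 0.534). Lead Mutyh also no longer passed on median scaling (−0.15, adjusted p = 0.356). With slide as a random block 9 of the 12 passed, against 40.7% of all probes, and A_52_P165831 (−0.33, adjusted p = 0.167), lead Tdg (0.15, adjusted p = 0.108) and lead Smug1 (0.15, adjusted p = 0.0946) did not. Slide and BPA coincide at 4 hr, and such a block does not separate them.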

How the results depend on the processing

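Over the glycosylase probes and comparisons, 1425 called values kept their call and direction under the alternatives other than leaving out an array, 233 lost a call, 36 gained one and 15 that were called in either fit turned. Of values called in neither fit, 857 kept their direction and 51 did not. With normexp correction the calls were 2 and 6 for co-exposure against KBrO3 at 4 and 24 hr, 10 and 11 from 4 to 24 hr (KBrO3, co-exposure) and 4 for the interaction, against 12.2, 11.1, 39.7, 42.5 and 9.27% of all probes. Normexp also turned Smug1 A_52_P883243 (−0.31 and −0.39 at 4 hr, −0.6 after KBrO3 at 24 hr), Smug1 A_52_P900452 (−0.96, co-exposure at 4 hr), Mutyh A_52_P238785 (−0.54 and −0.74 at 24 hr), Mutyh A_52_P165831 (−1.04 and −0.77 at 24 hr, 0.1 for the interaction) and Neil1 A_51_P109742 (−0.17, co-exposure at 24 hr). From 4 to 24 hr after co-exposure, Smug1 A_52_P883243 turned with quantile normalization (0.1) and median scaling (0.39), Tdg A_52_P33287 (0.02) and A_51_P338336 (0.15) with median scaling, and Smug1 A_52_P900452 with slide as a fixed block (0.11). Median scaling moved the median of all probes in that comparison from −0.224 to 0.236, and normexp moved those of the 4 first-set comparisons with control to between −0.443 and −0.518. Whether those shifts account for the turns was not tested. With all 24 arrays in 1 fit, KBrO3 at 24 hr gave 6, co-exposure against KBrO3 6 and 6, the interaction 5 and BPA alone 5 and 5, against 37.3, 24.1, 15.1, 19.4, 22.5 and 20.6% of all probes. Bonferroni p below 0.01 with 1.5-fold gave 11 and 1 for KBrO3, 4 for co-exposure at 24 hr, 1 and 2 for co-exposure against KBrO3, 10 from 4 to 24 hr after KBrO3 and 2 for the interaction, against 28.7, 16.8, 20.8, 4.99, 5.8, 26.7 and 3.84%. Adjusted p with 1.5-fold gave 2 and 7 at 24 hr, 4 and 2 for co-exposure against KBrO3 and 4 for the interaction, against 33.2, 39.4, 20.1, 13.6 and 27.3%.

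Leaving out 1 array gave 17 to 18 and 16 to 17 calls at 4 hr, 9 to 11 and 14 to 15 at 24 hr, 9 to 11 and 11 to 13 for co-exposure against KBrO3, 16 to 17 and 17 to 17 from 4 to 24 hr, 9 to 12 for the interaction and 0 to 0 for BPA alone. With every array kept, 72.1, 78.6, 66.2, 69.9, 57.8, 46.7, 75.3, 81.2, 54.3, 4.24 and 3.4% of all probes were called, in the same order. Shares of all probes with 1 array left out are not given here. Replicate numbers did not pair the arrays. With a replicate block the counts were 17, 16, 10 and 14 against control, 10 and 12 for co-exposure against KBrO3, 17 and 17 between times, 10 for the interaction and 0 and 0 for BPA alone. In the same order, 70.8, 77.4, 64.2, 68.1, 55.1, 43.9, 74.1, 80.1, 51.4, 2.13 and 1.66% of all probes were called with the replicate block. The authors' value table equalled the scanner signals and changed nothing. Probes near background, the Neil2 probe among them, carry no measurable order.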
